A study of Mus musculus with 6 samples.

Results

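Transcripts of 9 genes of the tumour necrosis factor (TNF) superfamily were followed in dendritic cells grown from mouse bone marrow, 6 encoding ligands (Tnf, Tnfsf4, Tnfsf9, Tnfsf10, Tnfsf13b and Tnfsf15) and 3 encoding receptors (Tnfrsf1a, Tnfrsf1b and Fas). They were taken by gene name out of the 23398 genes of the deposited expression table, in which all 9 were found, and the receptor Cd40 was left out. Cells received either Ca(OH)2 nanoparticles (3 libraries) or vehicle (3 libraries) for 12 hours, and both groups were cultured in DMEM with fetal bovine serum and antibiotics. The strain, sex and age of the mice, the particle dose and any added growth factor are not given in the sources used here. Nor do the labels say whether replicates came from separate animals or cultures, so p-values measure the spread between these libraries, which may be technical. The comparison asks which of these transcripts differ between treated and untreated cells. Levels are in FPKM, which divide a gene's fragments by its length and by a library scale.

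Ligands of this superfamily are made as trimers on the cell surface, and some, TNF above all, are then cut free by membrane proteases. Their receptors fall into those with an intracellular death domain, such as TNF receptor 1 (Tnfrsf1a) and Fas, which can lead to cell death, and those that bind TRAF adaptor proteins directly, such as TNF receptor 2 (Tnfrsf1b). In dendritic cells TNF is an early inflammatory product and a maturation signal, while other ligands of the family act on T and B cells that the dendritic cell meets.

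Recovered depth was 17285713 to 21980551 reads per library, and nanoparticle library 1 stood apart from the others of its group. Across 10682 tested genes, which are not independent replicates, log2 levels of vehicle libraries correlated at 0.9926 to 0.9938 with each other and those of nanoparticle libraries 2 and 3 at 0.9895, but nanoparticle library 1 correlated with the latter at 0.9423 and 0.9282. In that library, 1261 tested genes (11.8%) were over 2-fold away from the average of nanoparticle libraries 2 and 3. Several results are therefore given both with and without it. The label of dendritic cells was checked against markers: Itgax, which encodes CD11c, was at 442 to 456 FPKM in vehicle and 248 to 398 FPKM in nanoparticle libraries, whereas Flt3, a receptor of classical dendritic cells, was at 0 to 0.0793 FPKM in all 6. Of 8 dendritic cell markers, 7 were tested, and 4 were lower and 0 higher with nanoparticles, and their 8 genes, led by Cd74, summed to 5369 to 5776 FPKM in vehicle and to 3019, 6259 and 6819 FPKM in nanoparticle libraries 1 to 3. Macrophage and monocyte markers were present in both groups (8 of 8 tested, 3 higher and 3 lower), with Csf1r at 158 to 159 FPKM in vehicle and 133 to 175 FPKM with nanoparticles. Their 8 genes summed to 689.9 to 809.7 FPKM in vehicle and 546 to 619 FPKM in nanoparticle libraries. Over all tested genes 17.0% were called higher and 16.2% lower (limma, adjusted p under 0.05). Marker sums did not pass 0.538 FPKM for T and NK cells or 0.361 FPKM for B cells in any library. Stromal markers summed to 0 to 0.0639 FPKM in vehicle and 0.923 to 3.69 FPKM with nanoparticles, neutrophil markers to 264 to 296 and 179 to 243 FPKM, and mast cell markers to 2.5 to 4.52 and 0.898 to 3.25 FPKM. Only 2 of 8 neutrophil, 2 of 6 mast cell and 0 of 5 stromal markers were high enough to be tested. Under 1 FPKM in both group means were 4 of the 8 neutrophil markers and 3 of the 4 stromal markers found. In such bulk samples fewer cells of a type and less RNA per cell cannot be told apart, and the part of these markers in the results that follow was not tested.

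Of the 9 genes, 7 rose with nanoparticles (limma, Benjamini-Hochberg adjusted p under 0.05 over all 10682 genes tested), 5 of the 6 ligands and 2 of the 3 receptors. Among all tested genes 17.0% were called higher, 16.2% lower and 33.2% in either direction. Tnfrsf1a did not pass the threshold, and Tnfsf13b was too low to be tested, the filter being at least 1 FPKM in at least 3 libraries. Tnfsf10 passed that filter through the nanoparticle libraries alone, so it could hardly have been tested without differing. Libraries of the groups did not overlap for the 7 that rose, a pattern found in the higher direction for 25.9% of tested genes, in the lower for 26.2% and in either for 52.1%. All 7 were also called higher, and none of the 9 lower, when nanoparticle library 1 was left out, a fit that called 34.3% of all tested genes higher. Directions are relative to the scaling the deposited values already carry. Under it 1817 genes were higher and 1733 lower, but with libraries scaled by recovered read totals these were 1108 and 3613, with the same sum of FPKM in every library 881 and 4307, and with the same upper quartile 1318 and 2720. Over all tested genes the median log2 value then moved from 0.00 to -0.28, -0.38 and -0.17, and the same 7 members were called higher under each of these.

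**Figure D1:**
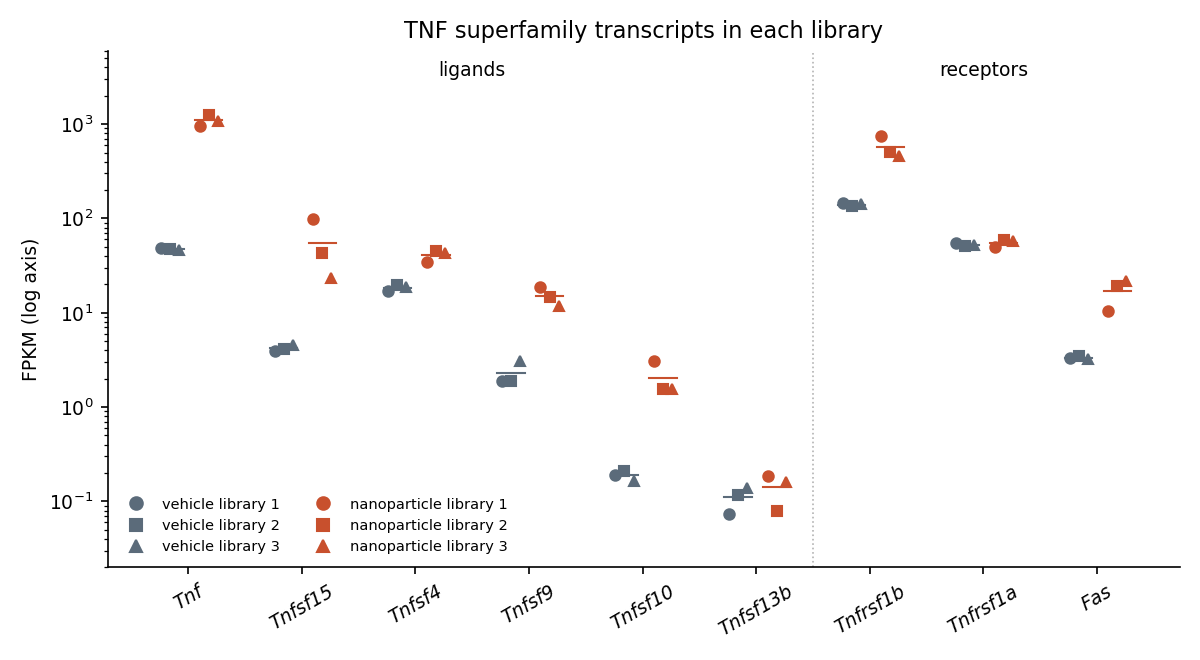
FPKM (log axis) of the 6 ligand and 3 receptor genes in each of 3 vehicle (grey) and 3 nanoparticle (orange) libraries, with the symbol giving the library number and the horizontal line the group mean. The groups are apart for Tnf, Tnfsf15, Tnfsf4, Tnfsf9, Tnfsf10, Tnfrsf1b and Fas, and overlap for Tnfsf13b and Tnfrsf1a.

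Tnf (ENSMUSG00000024401, protein coding, minus strand of chromosome 17 from 35199381 to 35202007, GENCODE M21 on GRCm38) encodes the inflammatory cytokine that names the family. Its level was 48.5, 47.8 and 46.5 FPKM in vehicle libraries 1 to 3 and 965, 1264 and 1072 FPKM in nanoparticle libraries 1 to 3. Every nanoparticle library was far above every vehicle library, and library 1 was the lowest of the treated ones. Means were 47.6 ± 1.04 and 1100.5 ± 151 FPKM (SD, n = 3 each), a 23.1-fold difference. The log2 change of FPKM + 1 was 4.49 (SE 0.14, limma adjusted p = 2.4e-05), and 4.58 without nanoparticle library 1. Only 48 of the 10682 tested genes had a larger log2 change. By mean level, Tnf moved from rank 859 among the 23398 genes in vehicle to rank 54 with nanoparticles. These values rest on 1553 to 1590 recovered reads per vehicle library and 25827 to 34281 per nanoparticle library.

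Since Tnf changed most among the 9 genes, its start region and the AU-rich stretch of its 3' untranslated region are shown. The 250 bases before the RefSeq start of Tnf (GRCm38.p6, chr17:35202008-35202257, minus strand) are given 5' to 3' with the TATA box letters TATAAA in capitals:
Tnf: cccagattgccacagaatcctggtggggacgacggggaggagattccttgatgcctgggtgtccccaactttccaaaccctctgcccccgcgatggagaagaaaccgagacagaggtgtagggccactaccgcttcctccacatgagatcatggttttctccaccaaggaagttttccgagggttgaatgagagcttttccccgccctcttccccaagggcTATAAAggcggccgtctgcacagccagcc
The motif TATAAA lay 29 to 24 bases before the start, and 12.4% of 32851 RefSeq windows of this length held it on either strand. Within these 250 bases there was no match to the NF-kB consensus, to AP-1 letters TGANTCA or to the interferon element core (GAAA, any 2 bases, GAAA), each searched on both strands. Shares of all windows with these were 7.25%, 6.75% and 2.98%. Tnf mRNA is known as a short-lived message that is destabilised through AU-rich elements. Its 3' untranslated region of 764 bases held 8 ATTTA pentamers and 5 overlapping copies of the nonamer TTATTTATT. At least 5 copies of the nonamer were present in 0.186% of 20964 genes compared, and 7.58% held 1 or more. The 30 bases densest in pentamers (chr17:35199679-35199708, minus strand) are given with the 5 pentamers in capitals:
Tnf AU-rich stretch: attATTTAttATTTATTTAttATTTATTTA
Among the other 8 genes the nonamer occurred once, in Tnfsf13b, while pentamers numbered 0 in Tnfrsf1a and Fas, 2 in Tnfsf4, Tnfsf9 and Tnfrsf1b, 4 in Tnfsf15, 6 in Tnfsf13b and 8 in Tnfsf10, whose untranslated region is 3998 bases long.

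Tnfsf15 (ENSMUSG00000050395, minus strand of chromosome 4, 63727084 to 63745113), which encodes TL1A, the ligand of death receptor 3, was at 3.90, 4.14 and 4.58 FPKM in vehicle libraries. With nanoparticles it was at 99.0, 43.5 and 23.5 FPKM in libraries 1 to 3, so that library 1 held more than libraries 2 and 3 together. Group means were 4.21 ± 0.344 and 55.4 ± 39.1 FPKM (SD, n = 3 each), a ratio of 13.2. Without nanoparticle library 1 this ratio was 7.97. Its log2 change was 3.20 (SE 0.48, 95% interval 2.05 to 4.35, limma adjusted p = 0.0035), against 2.67 without library 1 (limma adjusted p = 1.3e-04), and it carried the widest interval of the 8 genes tested.

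OX40 ligand, the product of Tnfsf4 (ENSMUSG00000026700, plus strand of chromosome 1, 161395409 to 161418410), prolongs T cell responses. Its transcript was at 17.1, 19.7 and 18.7 FPKM in vehicle and at 34.7, 45.0 and 42.9 FPKM in nanoparticle libraries. That was the smallest rise among the 7, from 18.5 ± 1.29 to 40.9 ± 5.43 FPKM (SD, n = 3 each), a ratio of 2.21, or 1.10 in log2 (SE 0.13, limma adjusted p = 0.0015). Tnfsf9 (ENSMUSG00000035678, plus strand of chromosome 17, 57105325 to 57107757) encodes the ligand of the T cell receptor CD137. In vehicle libraries it was at 1.87, 1.88 and 3.08 FPKM, from 48, 48 and 83 recovered reads, and in nanoparticle libraries at 18.6, 14.7 and 11.7 FPKM. The lowest treated library was well above the highest untreated one. Means of 2.28 ± 0.698 and 15.0 ± 3.46 FPKM (SD, n = 3 each) gave a ratio of 6.60, or 2.29 in log2 (SE 0.21, limma adjusted p = 6.2e-04). Tnfsf9 overlaps Gm11110, a long noncoding gene on the opposite strand, and since no source states whether counting used strand, reads of this pair cannot be told apart.

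Tnfsf10 (ENSMUSG00000039304, plus strand of chromosome 3, 27317028 to 27342427) encodes TRAIL, a ligand that can kill cells through death receptors. It was scarce in vehicle, at 0.191, 0.211 and 0.164 FPKM from 20, 22 and 18 reads. With nanoparticles it reached 3.05, 1.54 and 1.54 FPKM from 262, 134 and 156 reads, still low beside Tnf. Its means of 0.188 ± 0.0236 and 2.04 ± 0.872 FPKM (SD, n = 3 each) differed 10.8-fold, and 8.16-fold without nanoparticle library 1. On the log2 scale of FPKM + 1, which understates the change of so low a gene, the change was 1.32 (SE 0.20, limma adjusted p = 0.0036). From summed reads the ratio was 10.7, with an exact 95% interval of 8.18 to 14.2 that covers counting error only, as do all such intervals here. Tnfsf13b (ENSMUSG00000031497, plus strand of chromosome 8, 10006467 to 10039072), the gene of the B cell survival factor BAFF, was at 0.0731, 0.118 and 0.139 FPKM in vehicle libraries. In nanoparticle libraries it was at 0.187, 0.0792 and 0.159 FPKM, so that the groups overlapped. Only 9 to 21 reads lay behind each of these values, and the gene overlaps Gm44789 on the opposite strand. The ratio of its summed reads was 1.29 with an exact 95% interval of 0.848 to 1.96, so no difference was detectable at this depth.

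**Figure D2:**
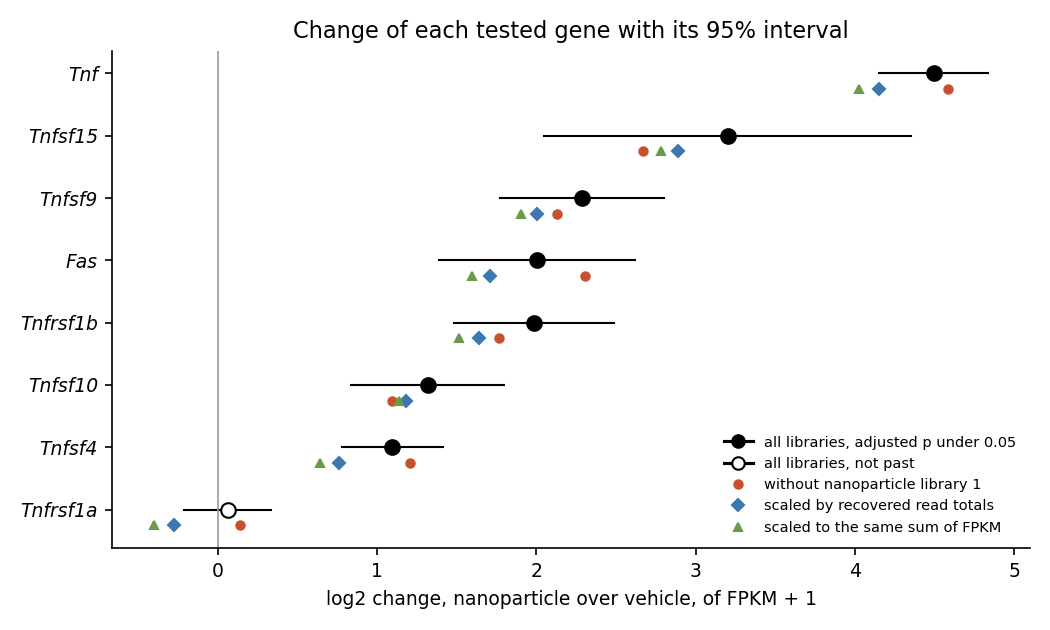
Log2 change of FPKM + 1, nanoparticle over vehicle, for the 8 genes tested, with the limma 95% interval as a line and, below each, the value without nanoparticle library 1 and under 2 other scalings. Tnf lies highest at 4.49, Tnfsf15 has the widest interval, and Tnfrsf1a lies near 0 and changes sign with the scaling.

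Of the receptors of TNF, Tnfrsf1b rose and Tnfrsf1a did not pass the threshold. Tnfrsf1b (ENSMUSG00000028599, minus strand of chromosome 4, 145213463 to 145246870), which encodes TNF receptor 2, was at 145, 135 and 141 FPKM in vehicle and at 752, 502 and 458 FPKM in nanoparticle libraries. It was the most abundant of the 9 transcripts in vehicle, and library 1 was the highest of the treated libraries. Means of 140.2 ± 4.73 and 571 ± 158 FPKM (SD, n = 3 each) gave a ratio of 4.07, and 3.43 without nanoparticle library 1. Its log2 change was 1.98 (SE 0.21, limma adjusted p = 9.1e-04).

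TNF receptor 1 is encoded by Tnfrsf1a (ENSMUSG00000030341, plus strand of chromosome 6, 125349362 to 125362484). It was at 55.2, 51.6 and 51.7 FPKM in vehicle and at 49.6, 59.5 and 57.1 FPKM in nanoparticle libraries, with nanoparticle library 1 the lowest and libraries 2 and 3 the highest of all 6. Means were 52.8 ± 2.05 and 55.4 ± 5.18 FPKM (SD, n = 3 each), and the log2 change of 0.06 (SE 0.11, limma adjusted p = 0.704) had a 95% interval of -0.21 to 0.34. Without nanoparticle library 1 the log2 change was 0.14 (limma adjusted p = 0.0646). Its sign turned with the scaling: the log2 change was -0.15 with the same upper quartile, -0.27 with recovered read totals and -0.40 with the same sum of FPKM. Only the last passed the threshold (limma adjusted p = 0.0133). In each of the 3, the value lay close to the median of all tested genes under that scaling, given above.

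A ratio of both receptors within a library does not depend on the scaling between libraries. Tnfrsf1b exceeded Tnfrsf1a by 2.62-, 2.62- and 2.72-fold in the vehicle libraries and by 15.1-, 8.43- and 8.02-fold in nanoparticle libraries 1 to 3. The groups were apart, with means of 2.65 ± 0.0577 and 10.5 ± 4.0 (SD, n = 3 each). On the log2 scale the ratio was higher with nanoparticles by 1.93 (exact permutation test, two-sided, p = 0.1, the smallest that 3 libraries against 3 allow), and by 1.63 without nanoparticle library 1.

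**Figure D3:**
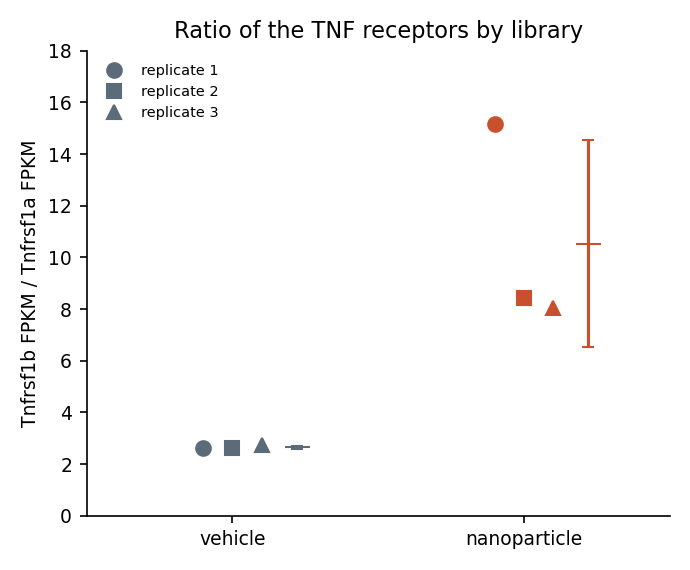
Ratio of Tnfrsf1b to Tnfrsf1a FPKM in each library, with the mean and SD of 3 libraries beside the points. Vehicle libraries sit between 2.62 and 2.72, nanoparticle libraries 2 and 3 near 8, and nanoparticle library 1 at 15.1.

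Fas (ENSMUSG00000024778, plus strand of chromosome 19, 34290666 to 34327772) encodes a death receptor that starts apoptosis when bound by Fas ligand. In vehicle it was at 3.32, 3.47 and 3.24 FPKM, and with nanoparticles at 10.5, 19.2 and 21.7 FPKM. Here nanoparticle library 1 was the lowest of its group, the opposite of Tnfrsf1b, yet still above all vehicle libraries. The gene overlaps Gm27818, a noncoding RNA gene on the same strand, and reads in the overlap cannot be told apart. Means of 3.34 ± 0.117 and 17.1 ± 5.88 FPKM (SD, n = 3 each) gave a ratio of 5.13, and 6.12 without library 1. Its log2 change was 2.00 (SE 0.25, limma adjusted p = 0.0019).

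Start regions of the receptors that rose are shown because, unlike those of several other members, their windows of 250 bases before the RefSeq start meet no annotated exon of the gene. Capitals mark motif matches:
Tnfrsf1b (GRCm38.p6, chr4:145246871-145247120, minus strand): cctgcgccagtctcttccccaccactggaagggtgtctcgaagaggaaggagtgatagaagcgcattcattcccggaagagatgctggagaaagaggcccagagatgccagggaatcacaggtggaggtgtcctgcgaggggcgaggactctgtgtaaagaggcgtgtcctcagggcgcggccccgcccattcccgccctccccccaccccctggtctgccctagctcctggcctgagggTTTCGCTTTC
Fas (GRCm38.p6, chr19:34290409-34290658, plus strand): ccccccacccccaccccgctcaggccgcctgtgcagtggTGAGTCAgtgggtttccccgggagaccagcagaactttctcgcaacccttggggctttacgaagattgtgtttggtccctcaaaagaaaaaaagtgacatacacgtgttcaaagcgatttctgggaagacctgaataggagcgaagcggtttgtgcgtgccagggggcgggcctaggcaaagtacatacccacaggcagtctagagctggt
In the Tnfrsf1b window the interferon element core was found on the opposite strand, in the last 10 bases before the start. The Fas window held the AP-1 letters TGANTCA from 211 to 205 bases before the start, a motif that reads alike on both strands. Neither motif was limited to genes that rose. A window of Tnfsf13b, for which no difference was detectable, held both, at positions -127 to -121 (AP-1) and -16 to -7 (interferon element core) from the start. The windows of Tnf, Tnfsf10, Tnfsf15 and Tnfrsf1a held neither. No NF-kB consensus was found in the windows of the 7 members that RefSeq's table holds. A match of letters is a description and not evidence of binding.

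Levels can be ordered because FPKM are per length. In vehicle the order from high to low was Tnfrsf1b, Tnfrsf1a, Tnf, Tnfsf4, Tnfsf15, Fas, Tnfsf9, Tnfsf10 and Tnfsf13b, and the ranges of neighbours did not overlap. With nanoparticles it was Tnf, Tnfrsf1b, Tnfrsf1a, Tnfsf15, Tnfsf4, Fas, Tnfsf9, Tnfsf10 and Tnfsf13b. Ranges then overlapped between Tnfrsf1a and Tnfsf15, between Tnfsf15 and Tnfsf4, and between Fas and Tnfsf9. Tnf made up 63.5% to 67.7% of the summed FPKM of the 6 ligands in vehicle libraries and 86.1%, 92.3% and 93.1% in nanoparticle libraries 1 to 3. That sum was 71.6 to 73.8 FPKM in vehicle and 1121 to 1369 FPKM with nanoparticles. It leaves out 9 other ligands of the superfamily, Tnfsf8 and Tnfsf12 among them. Those summed to 55.6 to 59.1 FPKM in vehicle and 40.7 to 58.7 FPKM with nanoparticles.

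Nanoparticle library 1 stood on either side of libraries 2 and 3, depending on the gene. It was the highest of its group for 5 genes, with ratios to the mean of the other nanoparticle libraries of 2.95 for Tnfsf15, 1.98 for Tnfsf10, 1.56 for Tnfrsf1b and 1.41 for Tnfsf9. The fifth, Tnfsf13b, had 21, 9 and 21 reads in nanoparticle libraries 1 to 3, too few to place library 1. For 4 genes it was the lowest, with ratios of 0.514 for Fas, 0.790 for Tnfsf4, 0.826 for Tnf and 0.850 for Tnfrsf1a. Over all tested genes it was the highest of its group in 42.3% and the lowest in 46.4%. Of the 8 macrophage and monocyte markers tested, library 1 was the highest for 4 and the lowest for 4. Of the 7 dendritic cell markers tested it was the highest for 0 and the lowest for 6. The part of cell makeup in these differences between treated libraries was not tested.

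**Figure D4:**
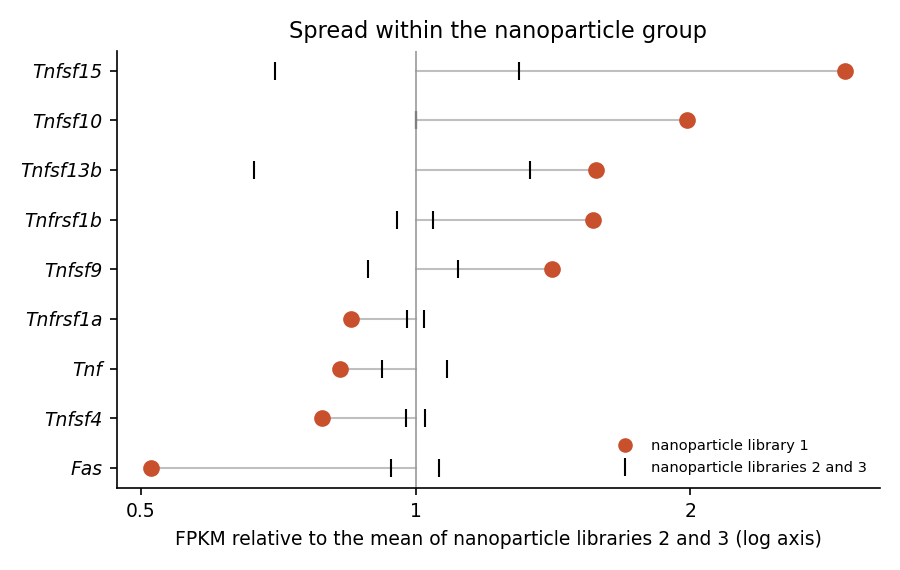
FPKM in each nanoparticle library relative to the mean of nanoparticle libraries 2 and 3 (log axis), with library 1 as a point and libraries 2 and 3 as ticks. Library 1 lies above 1 for 5 genes, up to 2.95 for Tnfsf15 and including Tnfsf13b, which rests on 9 to 21 reads per library, and below 1 for 4 genes, down to 0.514 for Fas.

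Other ligands of the superfamily did not move as one. Of 12 listed, 7 were tested, and 2 rose, 1 fell and 4 did not pass the threshold, beside 17.0% higher and 16.2% lower among all tested genes. Their median log2 change was -0.49 against 0.00 for all tested genes. That median is the value of Tnfsf12, which was low in nanoparticle library 1 alone. Without that library the median was -0.32, against 0.02 for all tested genes. Cd70, the ligand of CD27 on lymphocytes, had 1 read in all vehicle libraries together and was at 3.05, 4.52 and 5.18 FPKM with nanoparticles (limma adjusted p = 2.6e-04). The ratio of its summed reads was 219.7, with an exact 95% interval of 38.96 to 8724. Lta, which encodes lymphotoxin alpha, another ligand of the TNF receptors, and lies 1158 bases from Tnf on the same strand, rose from 0.706 ± 0.108 to 4.79 ± 1.99 FPKM (n = 3 each, ± SD), by 1.71 in log2 (limma, adjusted p = 0.0024). Tnfsf14, or LIGHT, fell from 1.76 ± 0.0431 to 0.589 ± 0.465 FPKM (n = 3 each, ± SD), by -0.84 in log2 (limma, adjusted p = 0.0227), a call lost when any 1 vehicle library was left out (limma adjusted p = 0.0740 to 0.0790) and with no filter on low values (limma adjusted p = 0.0613). Both Cd70 and Lta passed the filter through the nanoparticle libraries alone. Without nanoparticle library 1, 2 of these ligands were higher and 3 lower, beside 34.3% and 30.5% of all tested genes.

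Among 24 other receptors listed, 15 were tested, 3 rose, 0 fell and 12 did not pass, with a median log2 change of 0.12. That is close to the 17.0% of all tested genes called higher. Tnfrsf9, which encodes CD137 and pairs with Tnfsf9, rose from 1.25 ± 0.381 to 14.5 ± 9.21 FPKM (n = 3 each, ± SD), by 2.65 in log2 (limma, adjusted p = 0.0033). The treated libraries held 25.1, 10.1 and 8.39 FPKM. Its ratio of means was 11.7, and 7.42 without library 1. Tnfrsf26 rose from 24.4 ± 1.23 to 59.4 ± 19.7 FPKM (log2 change 1.2, limma adjusted p = 0.0079), a call lost with the same sum of FPKM (limma adjusted p = 0.0658). Tnfrsf8, which encodes CD30, was at 0.540 to 0.813 FPKM in vehicle and at 10.8, 3.76 and 2.34 FPKM with nanoparticles (log2 change 1.74, limma adjusted p = 0.0258). The ratio of means was 7.82, and 4.24 without nanoparticle library 1, and Tnfrsf8 passed the filter through the nanoparticle libraries alone. Its call was lost without any 1 vehicle library and without nanoparticle library 2 (limma adjusted p = 0.0574 to 0.0893), and also with no filter on low values (limma adjusted p = 0.0662). With the same sum of FPKM 2 of these receptors were higher and 7 lower, where 8.25% and 40.3% of all tested genes were. Without nanoparticle library 1 there were 4 and 4, where 34.3% and 30.5% of all tested genes were called.

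Known receptors of the other ligands did not pass the threshold or were too low to be tested. Tnfrsf10b, the TRAIL receptor, was at 2.80 to 3.50 FPKM in vehicle and 2.30 to 3.0 FPKM with nanoparticles (limma adjusted p = 0.3608), but was called lower with scaling by read totals and by the same sum (limma adjusted p = 0.0276 and 0.0121). Tnfrsf13b, a receptor of BAFF also known as TACI, was at 19.05 to 20.95 FPKM and at 17.3 to 22.6 FPKM (limma adjusted p = 0.6446). It was called lower without nanoparticle library 1 (log2 change -0.21, limma adjusted p = 0.0270) and with the same sum of FPKM (limma adjusted p = 0.0496). Under the filter were Tnfrsf4 (OX40) at 0.246 to 0.441 and 0.974 to 1.37 FPKM, Tnfrsf25 (death receptor 3) at up to 0.315 FPKM and Tnfrsf13c at up to 0.164 FPKM. For Tnfrsf4 the groups did not overlap, with a ratio of means of 3.45. It had 12, 10 and 7 reads in vehicle and 29, 22 and 36 reads in nanoparticle libraries, and it was not tested. Tnfrsf11b, another listed receptor under the filter, was looked up after its values were seen. It was at 0.107 to 0.143 FPKM in vehicle and at 5.87, 1.42 and 0.866 FPKM in nanoparticle libraries 1 to 3, so that the groups did not overlap. Decoy receptors of TRAIL in the mouse, Tnfrsf22 and Tnfrsf23, were looked up after their values were seen. Tnfrsf22 was at 1.01 to 1.38 FPKM in vehicle and at 3.69, 1.79 and 1.48 FPKM with nanoparticles (limma adjusted p = 0.1265). Tnfrsf23 was at 10.4 to 11.2 FPKM and at 29.2, 11.7 and 12.8 FPKM (limma adjusted p = 0.2445). Neither passed the threshold, although every treated library was above every vehicle library for both. Fasl and Tnfrsf17 were not analysed here.

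Signalling parts downstream of the receptors rose in part. Of 24 adaptors, ubiquitin ligases and kinases, all tested, 12 rose, 0 fell and 12 did not pass, with a median log2 change of 0.47. Among all tested genes 17.0% were called higher and 16.2% lower in this fit. Traf1, a TRAF adaptor that binds TNF receptor 2, rose from 2.44 ± 0.378 to 40.03 ± 14.6 FPKM (n = 3 each, ± SD), by 3.53 in log2 (limma, adjusted p = 2.4e-04). Birc3, a ubiquitin ligase of the receptor complexes, rose from 5.78 ± 0.389 to 27.7 ± 3.30 FPKM (log2 change 2.08). Smaller were the rises of Traf2, the adaptor shared by many of these receptors (log2 change 1.07), and of Rnf31, the catalytic part of the linear ubiquitin ligase (log2 change 1.14). With libraries scaled by recovered read totals 7 of the 24 were higher and 3 lower, where 10.4% and 33.8% of all tested genes were. Without nanoparticle library 1 there were 17 and 2, in a fit that called 34.3% of all tested genes higher and 30.5% lower.

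In the list of death effectors and their inhibitors 4 of 8 genes rose, 0 fell and 4 did not pass, with a median log2 change of 0.71. The same fit called 17.0% of all tested genes higher and 16.2% lower. Mlkl, the pore former of necroptosis, was at 16.1, 15.8 and 15.0 FPKM in vehicle and at 84.9, 49.7 and 53.3 FPKM with nanoparticles, a rise of 1.89 in log2 (limma, adjusted p = 0.0011). Cflar, which encodes c-FLIP, an inhibitor of death receptor signalling, was at 7.98 to 8.52 FPKM in vehicle and at 91.8, 40.5 and 32.7 FPKM with nanoparticles (log2 change 2.46, limma adjusted p = 0.0034). Its ratio between groups was 6.69, and 4.45 without nanoparticle library 1. Scaled by read totals, 4 genes of the list were higher and 2 lower, beside 10.4% and 33.8% of all tested genes.

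Among 7 genes of ligand and receptor shedding 5 were tested, of which 3 rose and 1 fell, with a median log2 change of 0.73. Of all tested genes 17.0% were called higher and 16.2% lower in that fit. Adam17, the protease that cuts TNF from the membrane, went from 18.4 ± 0.704 to 31.6 ± 6.52 FPKM (n = 3 each, ± SD), by 0.73 in log2 (limma, adjusted p = 0.0179). This call did not hold without any 1 vehicle library, without nanoparticle library 2, or with scaling by read totals or by the same sum (limma adjusted p = 0.0624 to 0.0962). Rhbdf2, the carrier that brings ADAM17 to the surface, rose (log2 change 1.11, limma adjusted p = 5.2e-04), and so did Sppl2a, an intramembrane protease that cuts the remaining TNF stub (log2 change 0.87, limma adjusted p = 0.0019), though not with the same sum of FPKM (limma adjusted p = 0.0682). Adam10, a related sheddase, fell from 30.2 ± 1.52 to 14.0 ± 1.5 FPKM (n = 3 each, ± SD), by -1.06 in log2 (limma, adjusted p = 9.8e-04). With the same sum of FPKM 1 gene of the list was higher and 2 were lower, beside 8.25% and 40.3% of all tested genes.

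All 18 genes of a list known to be induced by TNF rose, where 17.0% of all tested genes were called higher. The list was chosen with earlier results of these data known, so its count is not independent of them. The median log2 change of the list was 1.94, or 2.04 with the gene at the read floor of 3 reads set to its bound. That bound is a log2 ratio of FPKM without the added 1, unlike the values of the other genes. Toll-like receptors and other signals induce these genes as well, and 3 of the 18 passed the filter through the nanoparticle libraries alone. Sod2, the mitochondrial superoxide dismutase, rose from 9.63 ± 0.487 to 133 ± 10.04 FPKM (n = 3 each, ± SD), by 3.66 in log2 (limma, adjusted p = 2.0e-05). Nfkbia, the inhibitor of NF-kB, rose from 35.1 ± 0.591 to 336 ± 63.9 FPKM (log2 change 3.21), and Irf1, a transcription factor, from 5.58 ± 0.0736 to 35.4 ± 2.75 FPKM (log2 change 2.46). Cxcl1, a neutrophil chemokine, had 2, 1 and 5 reads in vehicle libraries and was at 57.0, 91.6 and 68.6 FPKM with nanoparticles. The count for the list was 17 or 18 in each of the scalings and in each fit that left out 1 library. Those fits called 8.25% to 34.3% of all tested genes higher.

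**Figure D5:**
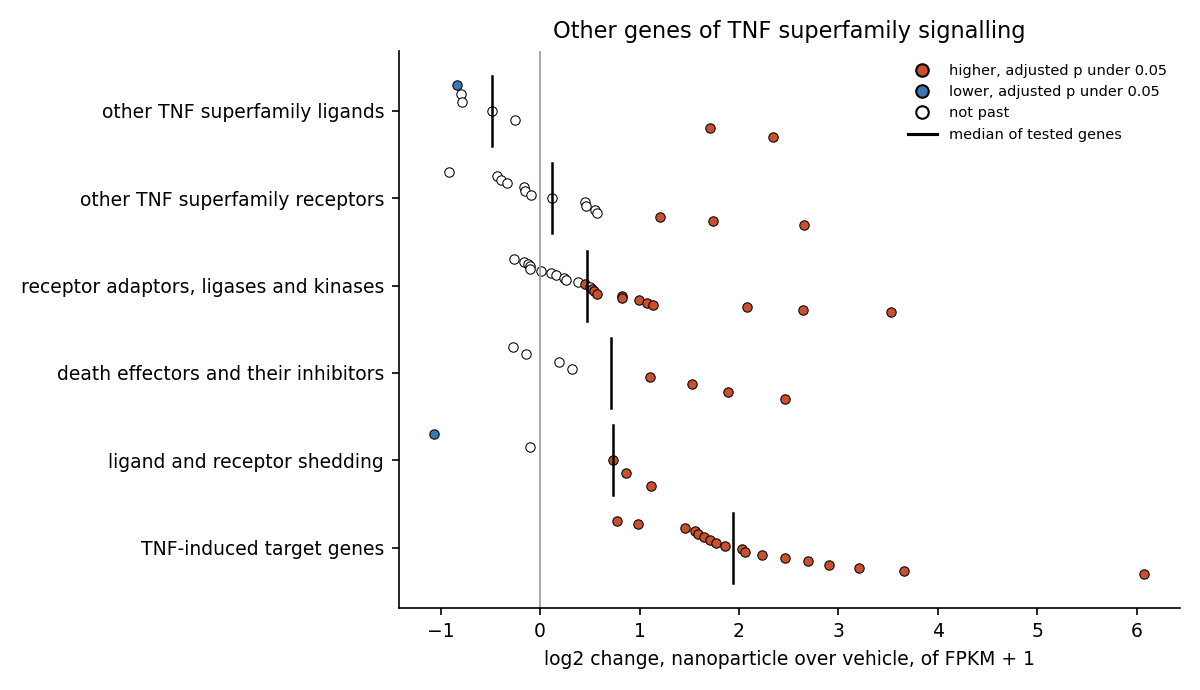
Log2 change of FPKM + 1, nanoparticle over vehicle, of each tested gene in 6 lists of TNF superfamily signalling, with filled points past an adjusted p of 0.05 and a bar at the median of each list. The listed TNF-induced genes are all filled and higher, while the other ligands and receptors lie on both sides of 0.

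Genes with the most alike profiles were sought among all 10682 tested, by the smallest root mean square difference over 6 libraries of log2 levels taken relative to the vehicle mean. Closest to Tnf were Fabp3, a fatty acid binding protein (0.172), and Il27, a cytokine subunit gene (0.196). For Tnfsf4 these were Cd82 and Hnrnph3 (0.0493 and 0.0556), for Tnfsf9 A530040E14Rik and Pmp22 (0.173 and 0.174), and for Tnfsf15 Gm13571 and Gem (0.165 and 0.209). Tnfrsf1b lay nearest to Mov10 and Uba7 (0.0825 and 0.0827), and Fas to Bcl2a1d and Slpi (0.0851 and 0.115). For Tnfrsf1a they were E130309D02Rik and Ufsp2 (0.0272 and 0.0275), and for Tnfsf10 4933412E12Rik and Denr (0.04 and 0.0403). No 2 of these 8 members shared a nearest gene. The levels compared are of FPKM + 1, so genes low in vehicle can look alike without a like ratio of FPKM. Denr was at 9.60 to 9.86 FPKM in vehicle and 21.0 to 34.7 FPKM with nanoparticles. Tnfsf10 was at 0.164 to 0.211 and 1.54 to 3.05 FPKM. Il27, Gm13571 and 4933412E12Rik passed the filter through the nanoparticle libraries alone.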

How the data were processed

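RNA of 3 vehicle and 3 nanoparticle libraries was sequenced from 1 µg total RNA with a NEBNext Ultra II kit, per the labels' protocols. Groups came from the sample titles. The submitters' processing notes name CASAVA, STAR 2.5, HTSeq, edgeR 3.16.5 and DESeq2 and the builds hg19 and mm10, with no role or order. Annotation and strand are not given in the sources used here.

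The authors deposited 2 tables whose 140388 values are identical, one of them named for read counts although its values are not whole. No source names the unit. The deposited values were treated as FPKM because low values step with gene length. Taking gene lengths from merged GENCODE M21 exons, 95.8% to 96.1% of values above 0 per library were whole reads (within 0.01). Median-of-ratios factors of the FPKM, over 13988 genes, differed by at most 8.3e-08% between libraries, so the deposited values already carry such a scaling, which hides a shift shared by most genes. For 563 of 565 genes of at least 1 FPKM on average without whole reads another length gave them, among them Fas (1801 in place of 2062 bases). Recovered reads give depth only and were not tested, so no count model was run.

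The 10682 genes that reached 1 FPKM in 3 or more libraries were tested with limma 3.58.1 in R 4.3.3 on log2(FPKM + 1), with group as the term, a mean-variance trend and Benjamini-Hochberg adjustment over all genes. Intervals and SE are limma's. Scaling, filter, pseudocount, trend, replicate block and left-out libraries were the alternatives tried. The fit was also run on simulated data in which both groups had the spread of the vehicle libraries. That run does not cover the wider spread between nanoparticle libraries. The receptor ratio was tested by exact permutation in Python 3.11.15, with numpy 2.4.6, pandas 2.3.3, scipy 1.17.1 for exact intervals and matplotlib 3.10.9 for figures.

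The members and lists were chosen with earlier results of these data known. Named genes were the members, up to 4 genes per list with the smallest adjusted p past the threshold, known partners of members, and 2 genes nearest in profile to each member. Some results of the list of death effectors are not reported here. Motifs were searched in RefSeq promoters (GRCm38.p6), which held 7 of the 9 members.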

Additional observations from a re-analysis of the deposited data

How the results depend on the processing

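The 7 members called higher were called so in every alternative, except that Tnfsf10 was not tested when at least 5 FPKM were required, which left 6. With the same sum of FPKM 8 members were called, the added one being Tnfrsf1a as lower. Tnfrsf1a turned sign under each other scaling, to a log2 change of -0.40 (same sum of FPKM), -0.15 (same upper quartile) and -0.27 (recovered read totals), while the other 7 tested members kept their sign under all 14 alternatives. Of the genes that the naming rule selects, 32 tested ones were followed under those alternatives, which leaves out the genes nearest in profile. For these 32, 418 values kept their sign and side of the threshold, 17 were no longer past it, 4 were newly past it and 3 turned sign. Leaving out 1 library gave 2141 to 6923 genes past the threshold in place of 3550, the lowest without vehicle library 3 and the highest without nanoparticle library 1; the other vehicle libraries gave 2226 and 2188. For the receptor ratio these fits gave a log2 difference of 1.63 to 2.09. With the replicate number as a block, 2785 genes and 7 members passed. Whether equal numbers pair the libraries was not settled. Deviations of same-numbered libraries from their group means correlated at 0.07, 0.11 and -0.06, and those of differently numbered ones at -0.13 to 0.11. With 3 libraries per group and nanoparticle library 1 apart from its group, these values cannot decide it. Depth limits Tnfsf13b, with at most 21 reads per library.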

Other observations

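Some ligand genes that did not pass the threshold were low in nanoparticle library 1 alone or most of all. They were chosen after their values were seen. Tnfsf12, which encodes TWEAK, was at 20.04, 21.8 and 21.1 FPKM in vehicle libraries and at 5.70, 23.2 and 22.8 FPKM in nanoparticle libraries 1 to 3, so that only library 1 left the vehicle range downward. Tnfsf13, the gene of the B cell factor APRIL, was at 6.09 to 7.54 FPKM in vehicle and at 1.80, 4.69 and 5.14 FPKM with nanoparticles. Ltb, which encodes lymphotoxin beta, was at 2.88 to 3.48 FPKM in vehicle and at 0.323, 1.63 and 3.22 FPKM with nanoparticles. Among receptors, Relt followed the same order, at 9.63 to 10.8 FPKM in vehicle and at 2.63, 5.90 and 6.98 FPKM with nanoparticles (log2 change -0.91, limma adjusted p = 0.0547).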
